A study of Mus musculus with 2 samples.

Results

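Hippocampal RNA of AtrxdE2 mice, mutant for the chromatin remodeller ATRX (allele AtrxΔE2), was compared with that of wild-type mice on 1 array read in a pair of colours. The comparison covers every probe that exceeded the mean of the blank spots by more than 2 SD of those spots in both channels. This held for 19839 of 23473 probes (84.5%), which represent 14313 named genes, while 2133 named genes were not measured. The AtrxdE2 RNA, a pool of 5 mice, was labelled with Cy3, and the wild-type RNA, also a pool of 5 mice, with Cy5. Neither genotype is labelled as treated, and the labels give no strain, sex or age for these animals. A further array of the study carries a pool of 5 AtrxdE2 mice given the G-quadruplex ligand TMPyP4 at 30 mg/kg by intraperitoneal injection between postnatal days 30 and 90, again against wild type. Whether both arrays carry the same wild-type pool is not stated. With 1 pool a side and no dye swap there was no replicate check, no test was possible and no p-value is given, and genotype and dye cannot be told apart.

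ATRX is a DNA-dependent ATPase of the SNF2 family that works with the histone chaperone DAXX to place histone H3.3 in heterochromatin, telomeres, imprinted regions and repeats that can fold into G-quadruplexes. Mutations of the human gene cause ATR-X syndrome, an X-linked form of intellectual disability. Xlr3b, an imprinted gene of the X chromosome that has been studied in Atrx mutant mice, encodes a protein that associates with RNA bound for dendrites, such as the mRNA of the kinase CaMKII.

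Each value below is a log2 ratio of AtrxdE2 over wild type, after correction for the blank level with an added offset of 50 and a loess fit that removes the dependence of the ratio on signal. The offset draws the ratios of dim probes towards 0, so the ratio in the authors' value table, which has neither step, is given beside those of dim genes. Signals are scanner units above the blank level, and AtrxdE2 signals were divided by 1.571 so that the middle of both channels coincided. The median signal above blank was 42.2 in the wild-type channel and 64.6 in the AtrxdE2 channel before this scaling, with blank spots varying by an SD of 1.23 and 3.3. The ratios of all measured probes had an SD of 0.19, and in 138 genes with several measured probes the range between probes had a median of 0.14. In 6 genes that range was more than 1.5-fold. Spots of positive control 2 had a mean ratio of 0.12 ± 0.11 (SD, n = 24 spots) and those of positive control 3 a mean of -0.54 ± 0.090 (SD, n = 24 spots). The wild-type channels of both arrays differed by an SD of 0.29, and 125 of 18664 probes (0.670%) differed by at least 2-fold between them. Ratios over the wild type of the other array, after quantile normalization, are therefore also given.

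Atrx itself was among the lower genes. Its signal was 47.4 in wild type and 12.2 in AtrxdE2, still 5.78 blank SD above blank, with a ratio of -0.68 (-1.96 in the authors' value table and -0.95 over the other wild type). The 500 genes nearest in signal, which serve here as a measure of spread between genes, had an SD of 0.13. Where the probe lies on the transcript was not analysed here, and a probe outside the deleted part would not report the deletion itself. Daxx had signals of 185 and 207 and a ratio of 0.14. On the array with TMPyP4 the ratios over wild type were -0.36 for Atrx and -0.094 for Daxx.

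The genes that work with ATRX lay close to the middle of the array. All 32 genes of this list were measured, 21 were above 0, and the median was 0.058 (-0.00044 over the other wild type), against 50.3% above 0, 49.7% below 0 and a median of 0.00083 over all measured genes. Atrx was the one member past 1.5-fold, and 0.629% of all measured genes were lower by that much. In the role of H3.3 chaperone, Hira had -0.14 and its partner Ubn1 -0.17 (-0.50 in the authors' value table), with wild-type signals of 49.1 and 33.0. Of the H3.3 genes, H3f3a had signals of 534 and 403 and a ratio of -0.37, and H3f3b had 2143 and 2261 and a ratio of 0.11. These genes encode the same histone protein, and their ratios had opposite signs, but over the other wild type both were below 0, at -0.13 for H3f3a and -0.14 for H3f3b. The 7 DNA methylation genes had a median of 0.10, 6 of them above 0, led by the maintenance methyltransferase Dnmt1 with signals of 280.4 and 376 and a ratio of 0.37. Cbx5, which encodes the heterochromatin protein HP1 alpha, had 0.33 but -0.12 over the other wild type, and the histone H3K9 methyltransferase gene Setdb1 had 0.23. The cohesin subunit gene Rad21 had -0.31. Telomere and G-quadruplex helicase genes had a median of 0.082 (0.022 over the other wild type), with 19 of 24 above 0 and none past 1.5-fold. The highest were Nola2 (now Nhp2) at 0.56 and BC068171 (now Dkc1) at 0.44, both parts of the telomerase ribonucleoprotein, and the lowest was Nola1 (now Gar1) of the same particle at -0.15.

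No named gene exceeded Xlr3b in its ratio. Its signal was 49.9 in wild type and 276 in AtrxdE2, a ratio of 1.75 against an SD of 0.20 among the 500 genes nearest in signal (2.47 in the authors' value table). Over the wild type of the other array, where the wild-type signal was 40.8, the ratio was 1.82. Xlr4b, a neighbouring member of the family, had signals of 20.1 and 36.0 and a ratio of 0.32 (0.84 in the authors' value table), and Xlr5d was not above background in either channel, at -0.33 and 1.27. Of the 3 Xlr genes on the array, Xlr3b alone was past 1.5-fold. In the TMPyP4 array the ratios over wild type were 0.30 for Xlr3b and -0.035 for Xlr4b.

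The 250 bases upstream of the annotated starts of these genes are shown because Xlr3b had the highest ratio among named genes and because CpG methylation and G-quadruplex DNA are studied as routes of ATRX action. They come from the RefSeq promoter table of assembly GRCm38.p6, are written 5′ to 3′ on the gene's strand, and carry every CpG in capitals. Xlr3b lies on chrX:73191929-73192178 (plus strand), its near copy Xlr3a on chrX:73097096-73097345 (minus strand) and Xlr4b on chrX:73214083-73214332 (plus strand).
Xlr3b: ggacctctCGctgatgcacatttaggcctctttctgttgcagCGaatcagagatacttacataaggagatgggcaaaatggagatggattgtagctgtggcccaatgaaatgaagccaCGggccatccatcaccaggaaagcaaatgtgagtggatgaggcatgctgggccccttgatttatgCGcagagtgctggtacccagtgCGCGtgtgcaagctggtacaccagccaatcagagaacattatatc
Xlr3a: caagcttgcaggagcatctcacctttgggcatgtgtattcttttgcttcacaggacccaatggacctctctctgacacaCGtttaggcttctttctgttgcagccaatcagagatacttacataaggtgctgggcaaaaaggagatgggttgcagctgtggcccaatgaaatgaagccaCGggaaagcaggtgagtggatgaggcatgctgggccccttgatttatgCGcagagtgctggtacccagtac
Xlr4b: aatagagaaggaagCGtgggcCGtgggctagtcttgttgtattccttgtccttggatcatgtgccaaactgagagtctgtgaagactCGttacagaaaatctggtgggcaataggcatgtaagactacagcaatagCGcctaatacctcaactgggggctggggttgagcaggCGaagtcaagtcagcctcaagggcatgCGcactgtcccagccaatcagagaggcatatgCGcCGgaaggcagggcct
The windows hold 6 CpG in Xlr3b, 3 in Xlr3a and 8 in Xlr4b, against a median of 6 over all 32851 windows of the table. Aligned locally, Xlr3b and Xlr3a were identical at 175 of 204 columns (85.8%), and Xlr3b and Xlr4b at 53 of 81 (65.4%). With copies this alike, part of the signal of the Xlr3b probe may come from Xlr3a, and how far was not tested. A G-quadruplex pattern of 4 GGG runs separated by 1 to 7 bases, on either strand, was in none of these windows and in 16.6% of all windows. That says only that these letters are not in this stretch.

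Across the array, 12 probes were at least 2-fold higher in AtrxdE2, 0.0605% of those measured, and 4 were at least 2-fold lower, or 0.0202%. Unnamed probes made up 8 of the 12 and 3 of the 4. The highest probe of all, M400013330, is unnamed here and had signals of 286 and 1235, a ratio of 1.94, with 2.37 over the other wild type and 1.86 on the TMPyP4 array. Among named genes the rule used was 1.5-fold: 61 were higher (0.426%) and 90 lower (0.629%). At 2-fold, 3 named genes were higher (0.021%), namely Xlr3b, Ttr and Mgp, and Mbp alone was lower (0.00699%). The split depends on the scaling. By the same 1.5-fold rule the authors' value table has 822 genes (5.74%) higher and 728 (5.09%) lower, and with median centring in place of the loess fit 374 were higher and 21 lower. That table has 2.18% of probes higher and 0.776% lower by 2-fold. At 1.5-fold, 116 probes (0.585%) were higher and 127 (0.64%) lower. With median centring the median ratio over all measured genes was 0.053. That of the bright oxidative phosphorylation genes was then 0.22, against -0.025 with the loess fit, so medians with this setting are not centred on 0. The median wild-type signal was 84.5 over all measured genes, 120 over the 61 higher genes and 354 over the 90 lower ones, so the lower genes were brighter. Around these 151 genes, ratios of the 500 genes of most similar signal spread by an SD of 0.12 to 0.26.

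**Figure D1:**
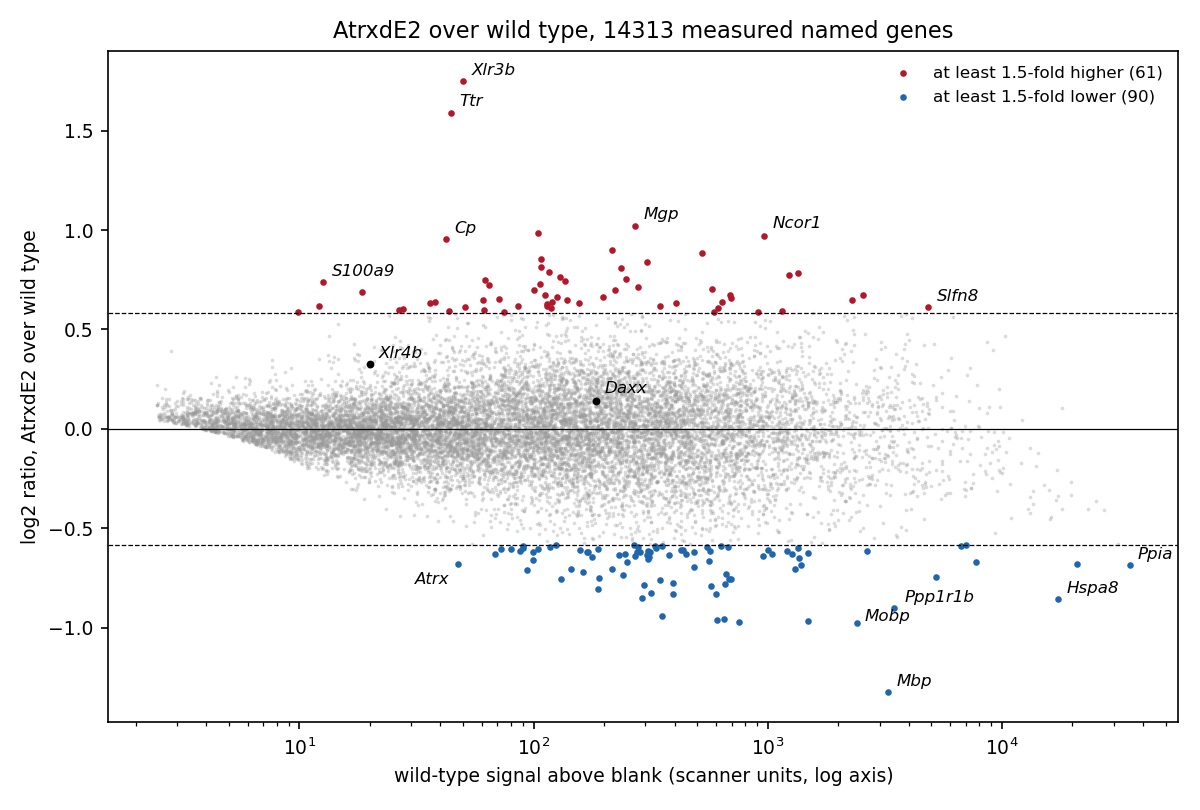
Log2 ratio of AtrxdE2 over wild type (vertical axis) against the wild-type signal above blank in scanner units (horizontal log axis), 1 point a gene for 14313 genes, with dashed lines at 1.5-fold. Xlr3b and Ttr stand above the 61 higher genes, Mbp below the 90 lower ones, and the brightest genes on the lower side, such as Hspa8 and Ppia, lie far right.

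The lower end was led by genes of myelin, the membrane sheath that oligodendrocytes wrap around axons. Mbp, which encodes myelin basic protein of compact myelin, had signals of 3253 in wild type and 1242 in AtrxdE2 and a ratio of -1.32 (-1.98 over the other wild type), the lowest of all named genes. Mobp, a further protein of compact myelin, had signals of 2392 and 1169 and a ratio of -0.98 (-1.59 over the other wild type). These probes were bright and their authors' values of -1.39 and -1.03 lay close to the ratios given. Of 30 measured genes of the oligodendrocyte list, 24 were below 0 and 4 were at least 1.5-fold lower, with none higher by that much. The median was -0.24, -0.34 in the authors' value table, -0.058 with median centring and -0.14 over the other wild type, where 19 of 30 were below 0, as were 51.9% of all genes with a value (48% were above 0). On the TMPyP4 array Mbp had -0.61 and Mobp -0.78 over wild type, and the oligodendrocyte list had a median of -0.21. Fewer oligodendrocytes and less of these RNAs per cell cannot be told apart in bulk tissue.

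The members of that list are described by the role of the product. The 5 compact myelin genes had a median of -0.56 (-1.11 over the other wild type, -0.30 with median centring and -0.10 with the local background), with Cldn11, the claudin of the myelin barrier, at -0.56 and Pmp22 at 0.13. The 9 other myelin proteins had a median of -0.38 (-0.14 over the other wild type). Among them Tspan2 had signals of 188 and 86.2 and a ratio of -0.80, Mal had -0.55, Tmem10 (now Opalin) -0.50 and Mag, the adhesion protein of the innermost myelin layer, -0.32. The 10 lipid and metabolic enzymes had a median of -0.27, from Cnp1 (now Cnp) with signals of 3556 and 2341 and a ratio of -0.54 to Enpp2 at 0.086. That subgroup's median over the other wild type was 0.023. The small heat shock protein gene Cryab, which mature oligodendrocytes express strongly, had signals of 651 and 314 and a ratio of -0.95. The 6 regulators of the lineage had a median of -0.061, which was 0.13 over the other wild type and 0.091 with median centring. Olig2 had signals of 159.6 and 192 and a ratio of 0.22, Olig1 954 and 956 with 0.012, and Sox10 270.1 and 240.5 with -0.13. With the local background in place of the blank level, the medians of compact myelin genes and regulators were -0.10 and -0.10, so the gap between these roles depends on the background. Mbp and Mobp had -1.22 and -0.90 by that setting, and the other myelin proteins a median of -0.37. The 10 genes of oligodendrocyte precursors had a median of -0.02 and none was past 1.5-fold, from Cspg4 at 0.21 and Pdgfra, the defining receptor of these cells, at 0.20 to Cspg5 at -0.47. Their summed signal was 3988 in wild type and 3408 in AtrxdE2, against 33359 and 24505 for the oligodendrocyte list.

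The upstream window of Mobp is shown as an example of these genes, chosen after the motif had been counted in all windows, with each ACAAAG or CTTTGT, the same letters read from both strands and a core known for the SOX family, in capitals. It is the RefSeq window of GRCm38.p6 on chr9:120149492-120149741 (plus strand).
Mobp: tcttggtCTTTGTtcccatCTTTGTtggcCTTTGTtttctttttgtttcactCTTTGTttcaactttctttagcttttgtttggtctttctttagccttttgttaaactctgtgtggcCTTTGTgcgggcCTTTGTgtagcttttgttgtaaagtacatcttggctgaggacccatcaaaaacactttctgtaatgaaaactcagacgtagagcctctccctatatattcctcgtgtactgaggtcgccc
It holds 6 copies, and it was the 1 window of 32851 (0.00304%) with as many, while 16.5% of windows held at least 1. Of the 30 measured oligodendrocyte genes 20 had a window in the table, and 5 of these (25%) held the letters, against 18.6% of 27025 genes. A match of letters is a description and not a binding site.

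Genes of cholesterol and isoprenoid synthesis, a pathway on which myelin draws heavily, were also mostly below 0. Of 21 measured genes 15 were below 0 and 2 were at least 1.5-fold lower, with a median of -0.17 (-0.27 over the other wild type). With median centring the median was 0.017, against 0.053 over all measured genes, so its sign depends on the scaling. Idi1, the isomerase that makes the activated isoprene unit of the mevalonate pathway, had signals of 355 and 162 and a ratio of -0.94. Sc5d, a desaturase of the last steps towards cholesterol, had 312 and 182 with -0.65. Stard4 had -0.42, while Srebf1, which encodes a lipogenic transcription factor, had 0.11, Sc4mol (now Msmo1) 0.099 and Insig2 0.092. On the TMPyP4 array Idi1 had 0.26 and Sc5d -0.13 over wild type.

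On the higher side, genes of fibroblasts, meninges and extracellular matrix were mostly above 0. Of 21 measured meninges and fibroblast genes 19 were above 0 and 5 were at least 1.5-fold higher, with a median of 0.39. The median was 0.63 in the authors' value table, 0.43 with median centring, 0.50 over the other wild type and 0.23 with the local background. Over the other wild type 15 of the 21 were above 0, as were 48% of all genes with a value. Mgp, the matrix Gla protein, had signals of 272 in wild type and 600.1 in AtrxdE2 and a ratio of 1.02. Fibronectin (Fn1) had signals of 305 and 582 and a ratio of 0.84, and 1.55 over the other wild type. With the local background Mgp had 0.56 and Fn1 0.48, both under 1.5-fold. The fibrillar collagen gene Col1a2 had 107 and 204 with 0.73, Col3a1 38 and 82.3 with 0.64, and the retinoic acid binding protein gene Crabp2 27.6 and 63.9 with 0.60 (1.21 in the authors' value table). The members at the other end were Apod at 0.047, Col6a3 at -0.06 and Aldh1a2, a retinoic acid enzyme of the meninges, at -0.081. In sum the list's signal was 4604 in wild type and 5902 in AtrxdE2. Collagen and laminin genes, a group that shares members such as Col1a2 and Col3a1 with the meninges list, had a median of 0.17. Of these 22 of 26 were above 0, including Col16a1 at 0.53 and Lamb2 at 0.49. Only the shared Col1a2 and Col3a1 were past 1.5-fold. The 13 integrin genes had a median of 0.006. On the TMPyP4 array the meninges list had a median of 0.54 over wild type.

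Vessel wall genes lay in the same direction with smaller ratios. Of 14 pericyte and smooth muscle genes 13 were above 0 with a median of 0.15 (0.063 with the local background), none past 1.5-fold. The actin-binding protein gene Tagln had signals of 74.0 and 129 and a ratio of 0.57, smooth muscle actin (Acta2) 290.4 and 394 with 0.39, and the pericyte gene Rgs5 83.6 and 54.8 with -0.33. Endothelial genes had a median of 0.089, 13 of 17 above 0, led by the VEGF receptor gene Flt1 at 0.54 (-0.32 over the other wild type) and Ly6c (now Ly6c1) at 0.39, with Cldn5, the tight junction claudin of brain endothelium, at -0.048. Summed signals were 1868 and 2087 for the pericyte list and 8775 and 9899 for the endothelial list. The part that adhering meninges or vessels may have in the values of Mgp, Fn1 and the collagens was not tested.

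Ttr, the gene of transthyretin, which carries thyroid hormone and is a defining product of the choroid plexus, had the next highest ratio among named genes after Xlr3b, at 1.59 with signals of 44.3 and 224. On the other array wild type had 219, and over that channel the ratio was -0.14, so its sign depends on the wild type used. The rest of the choroid plexus list did not share its size. Of 20 measured genes 15 were above 0, Ttr alone was past 1.5-fold, and the median was 0.056 (0.17 in the authors' value table, -0.0079 with median centring). The sulfate transporter gene Slc13a4 had 0.51 and Kl, which encodes the plexus protein klotho, 0.30 (0.85 in the authors' value table), while Sostdc1 had -0.14 and Kcne2 -0.15. Defining plexus genes were at or near the blank level in both pools, with Folr1 at 3.58 and 6.81 and Kcne2 at 9.16 and 4.42, and Aqp1 and Cldn2 not measured. The summed signal of the list, mostly from Atp1b1 and Clu which neurons and astrocytes also express, was 24538 and 21619. On the TMPyP4 array Ttr had 6.59 over wild type and the choroid plexus list a median of 0.66. The part that adhering choroid plexus may have in the values of Ttr was not tested. Ceruloplasmin (Cp), the copper oxidase, had signals of 42.3 and 122 with 0.96 (1.53 in the authors' value table), and the organic anion transporter gene Slc22a8 64.4 and 133 with 0.72.

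Genes of neutrophils were dim but above 0 throughout. S100a9 had signals of 12.6 in wild type and 51.3 in AtrxdE2 and a ratio of 0.74, which was 2.02 in the authors' value table. Its partner S100a8 had 39.9 and 66.7 with 0.42, and Ngp 6.15 and 16.1 with 0.24 (1.39 in the authors' value table). All 7 measured neutrophil genes of 10 were above 0, with a median of 0.16 (1.39 in the authors' value table), but 4 of 5 with a value were above 0 over the other wild type. On the TMPyP4 array S100a9 had -0.20 over wild type, and the neutrophil genes had a median of -0.071. Of the 3 measured erythroid genes Slc4a1 had 0.082, Alas2 -0.093 and Bpgm -0.49.

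**Figure D2:**
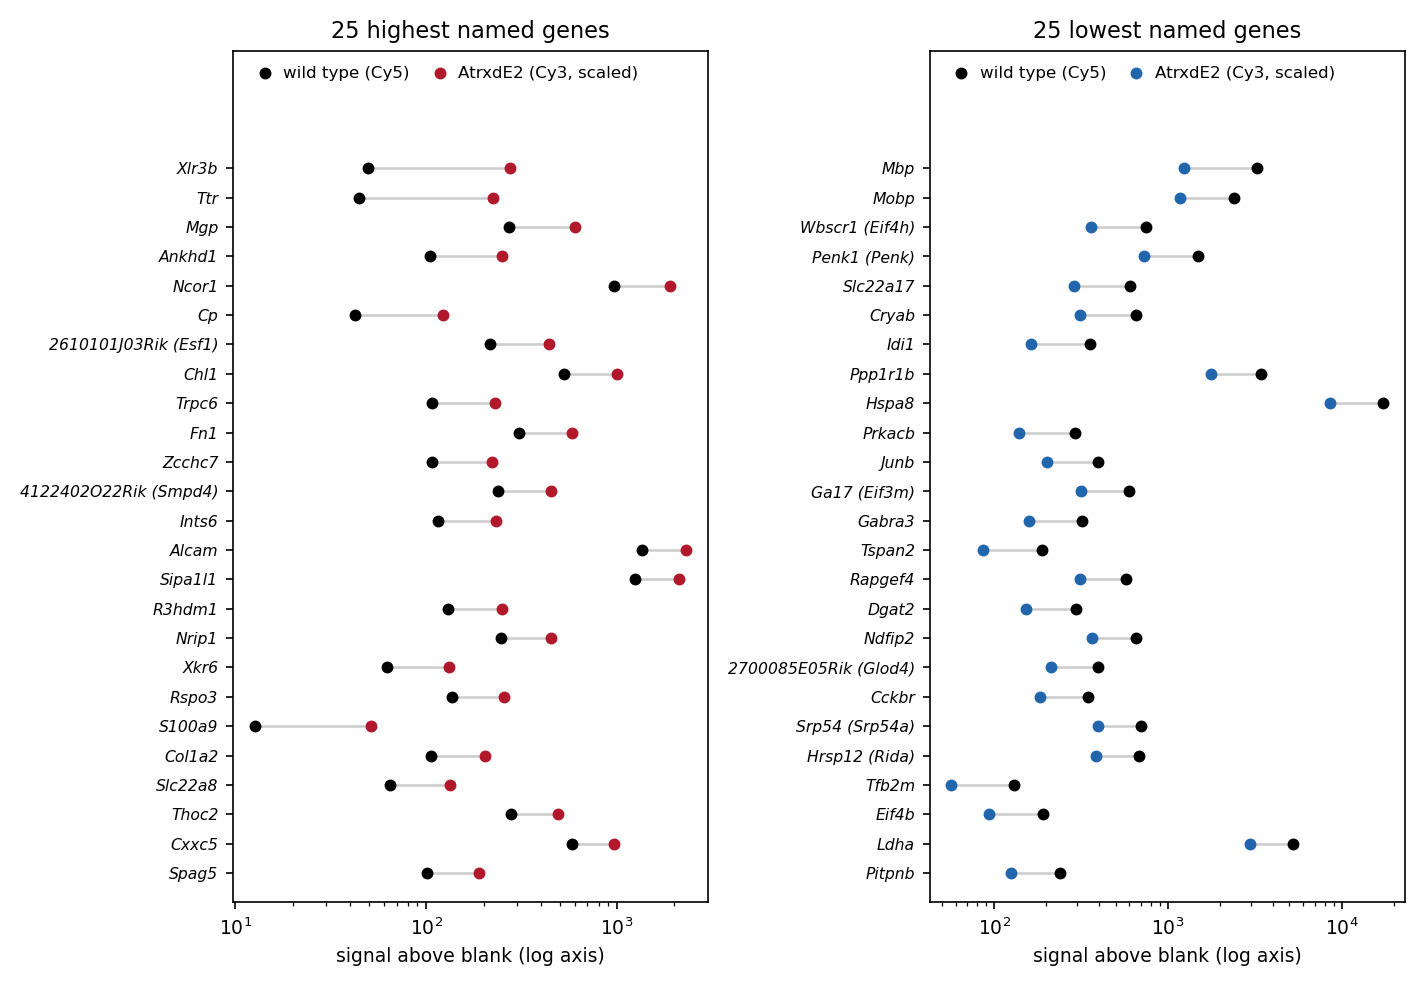
Signal above blank in scanner units (horizontal log axes) in the wild-type channel (black) and the AtrxdE2 channel divided by 1.571 (coloured) for the 25 highest and the 25 lowest named genes by log2 ratio, in order, with current symbols in brackets. Xlr3b, Ttr and Mgp head the higher genes and Mbp the lower ones, among which Hspa8 is the brightest at 17324 in wild type.

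Some of the 25 highest genes encode nuclear proteins and others, such as Chl1, Trpc6, Alcam, Rspo3 and Slc22a8, proteins of the membrane or secreted ones. The corepressor gene Ncor1, which docks histone deacetylase 3 to nuclear receptors, had signals of 961 and 1899 and a ratio of 0.97 (0.83 over the other wild type). Nrip1, a further nuclear receptor corepressor, had 248 and 448 with 0.75. Thoc2 of the mRNA export complex had 0.71, Ints6 of the Integrator complex 0.79, the nucleolar gene 2610101J03Rik (now Esf1) 0.90 and Ankhd1, a large ankyrin repeat protein gene, 0.99. Of 84 measured genes for chromatin remodellers and histone-modifying enzymes 56 were above 0, with a median of 0.099 (0.24 with median centring and 0.10 over the other wild type), and 1 in each direction was past 1.5-fold. The 31 histone methylation genes had a median of 0.19 with 23 above 0. The H3K4 methyltransferase family genes Mll5 (now Kmt2e) and Mll3 (now Kmt2c) had 0.51 and 0.43, the H3K27 demethylase gene Utx (now Kdm6a) 0.42, and the arginine methyltransferase gene Prmt1, with signals of 1265 and 795, -0.63. For Mll5 the ratio over the other wild type was -0.12. The 25 remodellers had a median of 0.12 with 18 above 0, and the 28 acetylation genes 0.019 with 15. At the lower end lay the histone acetyltransferase gene Htatip (now Kat5) at -0.46 and the demethylase gene Jmjd2a (now Kdm4a) at -0.42. On the TMPyP4 array the methylation genes had a median of -0.042 over wild type.

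For RNA that travels into dendrites, the array shows levels in whole tissue and not transport. Camk2a, the CaMKII subunit whose mRNA travels into dendrites, had signals of 2848 in wild type and 3381 in AtrxdE2 and a ratio of 0.30. For Camk2a the wild-type channels themselves differed by 1.07 on the log2 scale, so the ratio over the other wild type was 1.37. The other CaMKII genes were also above 0, with Camk2b at 0.15, Camk2g at 0.11 and Camk2d at 0.061. The list of CaMKII, calmodulin and calcineurin genes had a median of 0.034 with 13 of 22 above 0 and none past 1.5-fold, from the upstream kinase genes Camkk2 at 0.42 and Camkk1 at 0.30 to Camk1d at -0.20, Camk1 at -0.28 and Calm2 at -0.31. RNA-binding proteins of dendritic granules had a median of 0.13 with 19 of 27 above 0 (0.072 over the other wild type). Pura, which encodes a granule protein bound to kinesin, had 1084 and 1442 with 0.41, Ddx6 0.37 and Cpeb1, a regulator of polyadenylation in dendrites, 0.33. The 5 motor genes of the list had a median of -0.14 (0.11 over the other wild type and 0.12 with median centring), with the kinesin gene Kif5c at -0.33 and the dynein light chain gene Dynll2, at signals of 99.9 and 47.0, at -0.62. Among the 19 mRNAs known to be carried to dendrites the median was -0.02 with 7 above 0 (0.25 over the other wild type), from Mapt at 0.45 and Dlgh4 (now Dlg4) at 0.42 to Eef1a1 at -0.36 and Arc at -0.44. No member of that set was past 1.5-fold.

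Protein kinase A genes lay on the lower side. Prkacb, a catalytic subunit, had signals of 291 and 139 and a ratio of -0.85 (-1.08 over the other wild type), the regulatory subunit gene Prkar1b 1118 and 796 with -0.46, and 6 of the 7 subunit and anchor genes were below 0, with a median of -0.15. The median of that group was below 0 over the other wild type, at -0.50, and with median centring, at -0.068. Rapgef4, which encodes a cAMP-activated exchange factor of the Epac family, had 573 and 311 with -0.79. Ppp1r1b, the phosphatase inhibitor DARPP-32 of striatal neurons, had signals of 3448 and 1768 with -0.90, but the wild type of the other array had 1445 and gave 0.13. Penk1 (now Penk), the enkephalin precursor and likewise a striatal marker, had -0.96 and only -0.16 over the other wild type. The 13 striatal markers had summed signals of 8208 in wild type and 5649.6 in AtrxdE2. Most of that fall came from Ppp1r1b and Penk1, the latter with signals of 1484 and 732. The median of the 13 was -0.071, with 9 below 0, but it was 0.046 with median centring. On the TMPyP4 array Ppp1r1b had -0.89, Penk1 -0.52 and the striatal list a median of -0.43 over wild type. The part that striatal tissue in the wild-type pool may have in the values of Penk1 and Ppp1r1b was not tested.

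Receptor and vesicle genes of the synapse were spread on both sides. AMPA receptor subunit genes Gria2 and Gria3 had signals of 2322 and 3191 and of 2334 and 3156, with ratios of 0.50 and 0.47, and the metabotropic receptor gene Grm5 had -0.27. The 37 glutamate receptor and scaffold genes had a median of 0.05 and none past 1.5-fold. Of 19 GABA and glycine genes 11 were below 0 (17 over the other wild type) and 2 were past 1.5-fold, both lower: the receptor subunit gene Gabra3, with signals of 318 and 159 and a ratio of -0.82, and the transporter gene Slc6a11 at -0.63. In the vesicle fusion machinery the active zone scaffold gene Pclo had 0.65 and the SNARE gene Snap25, at 7748 and 4592, -0.67. The adhesion molecule genes Chl1, with signals of 525 and 1005, and Alcam, with 1349 and 2312, had 0.88 and 0.79. Chl1 had -0.26 on the TMPyP4 array, and Snap25 0.59.

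Among genes that keep proteins folded or degrade them, several cytosolic groups were mostly below 0, though not with median centring, and others were not. Hspa8, the constitutive HSP70 chaperone, had signals of 17324 and 8593 and a ratio of -0.86, with its 2 probes at -0.93 and -0.79. All 6 subunit genes of the chaperonin CCT, which folds actin and tubulin, were below 0, from -0.02 for Cct3 to -0.62 for Cct5, with a median of -0.25. All 8 genes for HSP90 and its cochaperones were below 0, with a median of -0.14, but 5 of 8 were above 0 over the other wild type. The 47 proteasome and ubiquitin genes had a median of -0.14 with 30 below 0 (-0.19 and 33 over the other wild type). Uchl1, the abundant neuronal deubiquitinase, had signals of 20837 and 11900.4 with -0.68, Ube2n, a ubiquitin-conjugating enzyme gene, -0.64, and Psmd4 of the proteasome's regulatory particle -0.54. At the other end lay Ube2a at 0.40. Chaperones and folding enzymes of the unfolded protein response had 11 of 15 above 0 with a median of 0.067 (-0.044 over the other wild type). Small heat shock and mitochondrial chaperones had 6 of 9 above 0 with a median of 0.12 (-0.0023 over the other wild type), and of 12 DNAJ and BAG genes 6 were above 0. With median centring the medians were 0.12 for HSP90, 0.005 for the chaperonin and 0.089 for the proteasome, against 0.053 over all measured genes. Their sign thus depends on the scaling. Positive control 3, at a wild-type signal of 7183, had -0.54 itself, and its part in the values of bright genes was not tested.

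Translation factors differed by subunit. The median of 47 genes was -0.012, with 1 higher and 3 lower by 1.5-fold. Wbscr1 (now Eif4h), a cofactor of the helicase eIF4A, had signals of 750.2 and 360.2 and a ratio of -0.97 (-1.33 over the other wild type), and Eif4b, the related cofactor, 191 and 93.0 with -0.75. Of the eIF3 complex, Ga17 (now Eif3m) had -0.83 and Eif3s10 (now Eif3a) -0.57, whereas Eif3s6 (now Eif3e) had 688 and 1117 with 0.67. Subunits of 1 complex thus lay on both sides. A probe of the subunit gene Eif3s1 had 1.01 (1.07 over the other wild type). The average over the probes of that gene was under 1.5-fold, so its probes differed. Cytosolic ribosomal protein genes had a median of 0.033, mitochondrial ones -0.062 with 49 of 74 below 0, and vacuolar ATPase genes -0.11 with 16 of 22 below 0, but with median centring the latter medians were 0.14 and 0.077.

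Of 41 measured immediate early genes, which neurons induce within minutes of activity, 27 were below 0. Over the other wild type 22 were below 0, as were 51.9% of all genes with a value. Among the 20 transcription factors 16 were below 0, with a median of -0.11 (-0.27 in the authors' value table, -0.11 with median centring, -0.059 over the other wild type). Over the other wild type 12 of the 20 were below 0. Junb had signals of 395 in wild type and 201 in AtrxdE2 and a ratio of -0.83, and Fos 425 and 280.2 with -0.53, whereas Jun had 489.8 and 629 with 0.33. The 21 effectors had a median of -0.064 with 11 below 0 (0.011 over the other wild type). Among effectors Sgk (now Sgk1), a kinase gene that glucocorticoids also induce, had -0.63, and the neurotrophin gene Bdnf 0.32. Junb alone of the factors was past 1.5-fold. The labels do not give the time of dissection, and its part in these values was not tested.

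Markers of hippocampal neurons were measured in both pools and lay near 0. Above background were 10 of 10 genes of CA1 pyramidal neurons, 13 of 14 of CA2 and CA3 and 17 of 18 of dentate granule neurons, with medians of -0.0028, 0.061 and -0.064. Defining genes were Wfs1 for CA1 at 0.078, Amigo2 for CA2 and CA3 at -0.089 and Prox1 for granule neurons at -0.064. One gene of these lists was past 1.5-fold, the channel gene Trpc6, with signals of 108 and 229 and a ratio of 0.85. Interneuron genes had a median of 0.0068, with Npy at 0.22 and the peptide gene Sst, at 5375 and 4211, at -0.28. The 20 astrocyte genes had a median of -0.058 and none past 1.5-fold, from the glutamate transporter gene Slc1a2 at 0.41 to the connexin gene Gjb6 at -0.40. The 20 microglial genes had a median of -0.044. Of these P2ry12, the purinergic receptor of resting microglia, had signals of 144 and 68.5 and a ratio of -0.70, while Cx3cr1 had 0.14 and Trem2 0.15. Cortical and thalamic lists had medians of -0.013 and -0.052. Olfactory receptor genes, of which 349 of 663 passed the filter, were dim, with a median wild-type signal of 11.4, where the offset leaves little room for large ratios. None of them was past 1.5-fold, but 52 were higher and 18 lower by that much in the authors' value table.

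**Figure D3:**
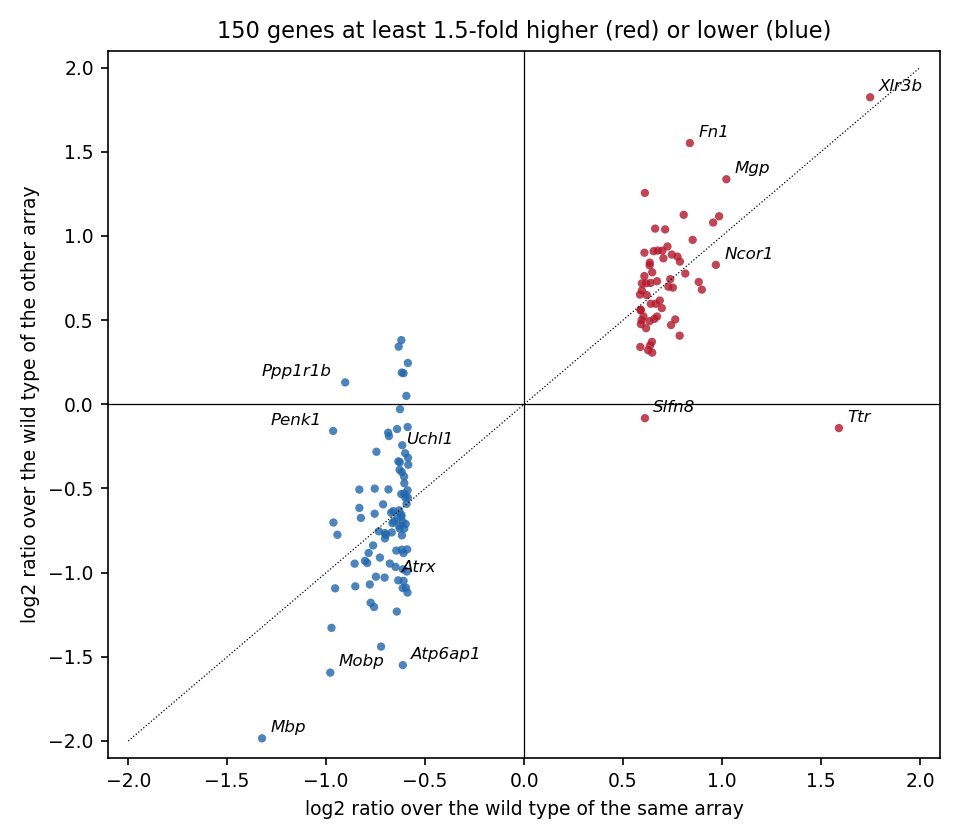
Log2 ratio over the wild type of the same array (horizontal axis) against the ratio over the wild type of the other array after quantile normalization (vertical axis) for 150 genes at least 1.5-fold higher (red) or lower (blue), with a dotted line of equality. Xlr3b, Mgp, Fn1 and Mbp lie near or beyond the line, and Ttr, Slfn8 and Ppp1r1b are among those that lie across 0.

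Of the 60 higher genes with a value over the wild type of the other array, 58 had the same sign and 40 were still past 1.5-fold. Of the 90 lower genes, 83 had the same sign and 58 were past 1.5-fold. The AtrxdE2 channel is the same in both ratios, so these counts show how far the choice of wild-type channel matters and give no replicate of the mutant. Genes that lost most of their difference included Ttr, Slfn8 (0.61 and -0.082), Penk1, Ppia (-0.69 and -0.17) and Uchl1 (-0.68 and -0.19). Those that kept or exceeded it included Xlr3b, Mgp, Fn1, Mbp, Mobp, Cryab, Prkacb and Wbscr1. On the TMPyP4 array 50 of the 61 higher genes and 44 of the 90 lower genes had the same sign over wild type. The mutant pool of that array was treated, so it is no replicate either.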

How the data were processed

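Amplified amino allyl RNA of 1 wild-type pool (Cy5) and 1 AtrxdE2 pool (Cy3) of 5 mice each was hybridised to 1 array, per the labels' protocols. The deposited scanner tables hold the spot intensity in each channel, per the file headers. The authors' value table holds log2 ratios, per the labels, and its values equal, up to a constant, log2 of the ratio of Cy3 to Cy5 with the blank mean subtracted, within 0.01 for 99.995% of probes. The scanner software is not given in the sources used here.

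Background was corrected with limma 3.58.1 (R 4.3.3) by normexp, with the trimmed mean of 2736 blank spots as background (a share of 0.05 cut at each end) and an offset of 50, then loess in which control spots had weight 0. To check the normalization, the AtrxdE2 signals of a sample of measured probes were multiplied by known folds and processed again. Probes of a gene were averaged. Symbols follow the platform annotation: 16631 probes have 1 symbol and 6842 none, and of 16446 symbols 12501 are current in RefSeq GRCm38.p6, 3883 matched a synonym and 62 neither. Atrx, Daxx and the Xlr genes are all named in the text. Others were drawn from the 25 highest and 25 lowest genes. Further sources were the 10 highest and 10 lowest further genes of the authors' value table (both channels at least 10 blank SD above blank). The last were the 3 highest and 3 lowest members and defining markers of each list. Not every gene of these sets is named. Other genes were chosen after their values were seen, by their role. The comparison, members and lists were chosen with earlier results of these data known. Called means past a fixed fold (2 for probes, 1.5 for genes), since there is 1 array, whose number limits the precision.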

Additional observations from a re-analysis of the deposited data

How the results depend on the processing

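No paired analysis was possible because each group is 1 pool on 1 array. The filters on dim probes and the removal of block medians, an alternative chosen after seeing the data, left the ratios of Atrx and Xlr3b on the same side. Atrx has no value among probes above the median signal. Genes at least 1.5-fold higher and lower, 61 and 90, became 59 and 69 without block medians and 52 and 81 above the median signal. The other filters on dim probes left these counts nearly the same. Probes at least 2-fold higher and lower were 13 and 5 without block medians. Taking the brightest probe of a gene gave 64 higher and 91 lower genes. It was also run for list medians and some named genes, but not for the probe counts, Atrx or Xlr3b. The counts of probes at least 2-fold higher and lower (12 and 4) and of genes at least 1.5-fold higher and lower (61 and 90) depended on background and normalization. They were 301, 188, 719 and 752 with plain subtraction, 25, 11, 135 and 167 with an offset of 16, and 24, 23, 110 and 200 with the local background. They were 433, 154, 822 and 728 in the authors' value table. Over the wild type of the other array they were 171, 103, 678 and 622, after quantile normalization with the offset kept. With median centring 27 probes and 374 genes were higher and 21 genes lower. In these settings the ratio of Atrx was -1.94 with plain subtraction, -1.10 with an offset of 16, -0.37 with the local background, -1.96 in the authors' value table and -0.95 over the other wild type. That of Xlr3b was 2.50, 2.13 and 2.47 with plain subtraction, an offset of 16 and in the authors' value table. Ppp1r1b (0.13) and Ttr (-0.14) changed sign over the other wild type. Why the settings differ was not tested; the offset compresses the ratios of dim probes by construction. Signal over background limits the dimmest genes, such as Ngp and Folr1.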

Other observations

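Several further genes had large ratios in the authors' value table, with both channels at least 10 blank SD above blank. Mllt3, which encodes a protein of a transcription elongation complex, had signals of 18.5 and 56.6 and 1.61 in that table (0.69 after the offset). Ank2, the neuronal ankyrin gene, had 1.42 there, the collagen receptor gene Ddr2 1.22 and Aprin (now Pds5b), a cohesin regulator, 1.13. On the lower side the receptor-sorting gene Gprasp1 had -1.31, the bicarbonate transporter gene Slc4a10 -1.25, the sodium channel subunit gene Scn3b -1.18 and Vps53 -1.17. A list of imprinted genes, which include known ATRX targets, was also read, but it leaves out Xlr3b. Of this list 29 of 33 genes were measured and 13 were above 0, with a median of -0.04 and none past 1.5-fold. Further genes near the ends were Sipa1l1, a spine regulator, at 0.77, Cckbr, the cholecystokinin receptor, at -0.76, Dgat2 of triglyceride synthesis at -0.79, Ldha at -0.75 and Slc22a17 at -0.96.

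Unnamed probes made up 27.1% of measured probes, 52 of the 116 probes at least 1.5-fold higher (44.8%) and 34 of the 127 lower (26.8%). Genes at least 1.5-fold higher were also longer. Their median genomic length in RefSeq GRCm38.p6 was 52.3 kb over 60 genes, against 23.5 kb over 89 lower genes and 22.3 kb over 14262 genes. Among the shortest 20% of genes 4 were higher and 17 lower, and among the longest 20% 23 and 16. Over all genes Spearman's rho of length and ratio was 0.082 (0.15 for the 7131 genes above the median signal), and 0.048 for the latter over the wild type of the other array, so the relation is weak and differs with the wild-type channel. Genes share 1 array and are not independent. The medians of the 24 print blocks ranged from -0.13 to 0.066.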
